A study of Mus musculus with 2 samples.

Results

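Antioxidant defence was examined through 10 genes, *Sod1*, *Sod2*, *Sod3*, *Cat*, *Gpx1*, *Gpx4*, *Nqo1*, *Gclm*, *Txnrd1* and *Srxn1*, chosen by their symbol among the 22156 genes of the deposited expression table. Each of the 10 symbols matched 1 gene, and all 10 had enough reads to be tested. The RNA came from primary chondrocytes of newborn mice, with 1 control library and 1 *Myl3*-KO (knockout) library. According to the labels the cells came from rib cartilage, while the methods of the study name rib and articular cartilage. The cells grew as an untreated monolayer in DMEM/F12 medium with fetal bovine serum.

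In *Myl3*-KO mice, *Myl3*, which encodes a light chain of myosin, is deleted by a Cre recombinase under the *Col2a1* promoter, and both alleles of *Myl3* are floxed. The deletion is therefore limited to cells that have used the promoter of type II collagen and to their descendants. The genotype is Col2a1-Cre; Myl3 flox/flox, the floxed allele goes back to 1 embryonic stem cell clone, and the strain background of all mice was C57BL/6J. The labels give the control genotype as WT, whereas the methods describe floxed littermates without Cre as controls, so whether the control cells carried the floxed allele was not settled here. How many mice went into a library was not given in the sources used here. With 1 library per genotype there was no replicate check, and a difference between genotypes, between cultures and between library preparations cannot be told apart.

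Cells that use oxygen form superoxide, mainly in mitochondria and at NADPH oxidases. Superoxide dismutases turn superoxide into hydrogen peroxide, and catalase, glutathione peroxidases and peroxiredoxins then remove the peroxide. The peroxidases draw their electrons from glutathione or thioredoxin, which reductases recharge with NADPH, and the transcription factor NRF2 raises many of these genes when cells are oxidized. In cartilage, a tissue with little oxygen, loss of this defence accompanies ageing and osteoarthritis.

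The control library held 17612434.91 expected counts (reads assigned to genes by estimation) and the *Myl3*-KO library held 13477976.98, a ratio of 1.307. *Myl3* itself had 0 counts in both libraries, so its transcript could not check the labels. Of 16 chondrocyte marker genes found in the table, 5 were at 0 in both libraries, among them *Acan* and *Matn1*, and *Col2a1* had 30 counts in control cells and 27 in the knockout. Fibroblast markers summed to 18736 CPM (counts scaled to a common library total) in control cells and 22358 in the knockout, carried by *Col1a2* (12017 and 14039 CPM) and *Fn1* (3065 and 4485 CPM), while *Thy1* was at 0 in both libraries and *Pdgfra* at 6.81 and 10.4 CPM. The chondrocyte markers summed to 127 and 128 CPM. The defining transcripts of cartilage were therefore at 0 or low in cells labelled as chondrocytes. *Sox9*, the regulator of cartilage identity, fell from 49.2 to 35.6 CPM (866 and 480 counts), while *Col11a2* rose from 16.6 to 29.3 CPM (293 and 395 counts). A count of 0 does not show that a transcript is absent. For ratios it was raised to 3 counts, or 0.170 CPM in control cells and 0.223 in the knockout. Among the fibroblast markers *Dcn* fell from 35.8 to 11.5 CPM (631 and 155 counts) and *Pdgfrb* rose from 209.5 to 342.6 CPM (3689 and 4617 counts). Of 8 erythroid markers, whose cells are rich in *Cat*, *Gpx1* and *Prdx2*, 6 were at 0 in both libraries, and the list summed to 0.341 and 0.297 CPM. Macrophage and immune markers summed to 5.34 and 4.75 CPM and endothelial markers to 3.92 and 3.78 CPM. Muscle markers summed to 4.54 CPM in control cells and 21.7 CPM in the knockout, nearly all from *Cdh15*, with 73 and 290 counts. In bulk RNA, fewer cells of a type and less RNA per cell cannot be told apart, and the part of cell composition in the ratios below was not tested.

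Of the 10 antioxidant genes, 4 were higher in *Myl3*-KO beyond counting error (*Sod3*, *Cat*, *Gpx1* and *Txnrd1*), 4 were lower (*Sod1*, *Sod2*, *Gpx4* and *Gclm*), and *Nqo1* and *Srxn1* lay within counting error. Here beyond counting error means a Benjamini-Hochberg adjusted p under 0.05 in a two-sided exact binomial test of the gene's counts against the library totals, adjusted over the 12431 genes tested. Among all genes tested, 18.6% were higher in *Myl3*-KO by this rule and 16.8% were lower. The antioxidant genes had 230 (*Sod3*) to 9470 (*Gpx4*) counts over both libraries, and all but *Sod3* and *Nqo1* lay above the median of 1053 for all genes tested. Small ratios pass a counting test more readily at high counts. None reached 1.5-fold in either direction, a size that 4.06% of all genes tested reached beyond counting error, 3.14% upward and 0.925% downward. The largest differences were those of *Sod3*, 1.45-fold higher, and *Sod2*, 1.26-fold lower.

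The test covers counting error only and says how these libraries differ, not how the genotypes do. When a spread between libraries of 10% (coefficient of variation 0.1) was assumed in edgeR's exact test, 0 of the 10 genes passed after Benjamini-Hochberg adjustment, 0 had an unadjusted p under 0.05, and the lowest unadjusted p among them was 0.0606. The median log2 ratio of the 10 genes was -0.08, against 0.02 for all genes tested, whose quartiles were -0.15 and 0.20. Of the 10, 6 lay inside these quartiles. Summed, the 10 genes held 1283 CPM in control cells and 1253 CPM in the knockout.

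**Figure D1:**
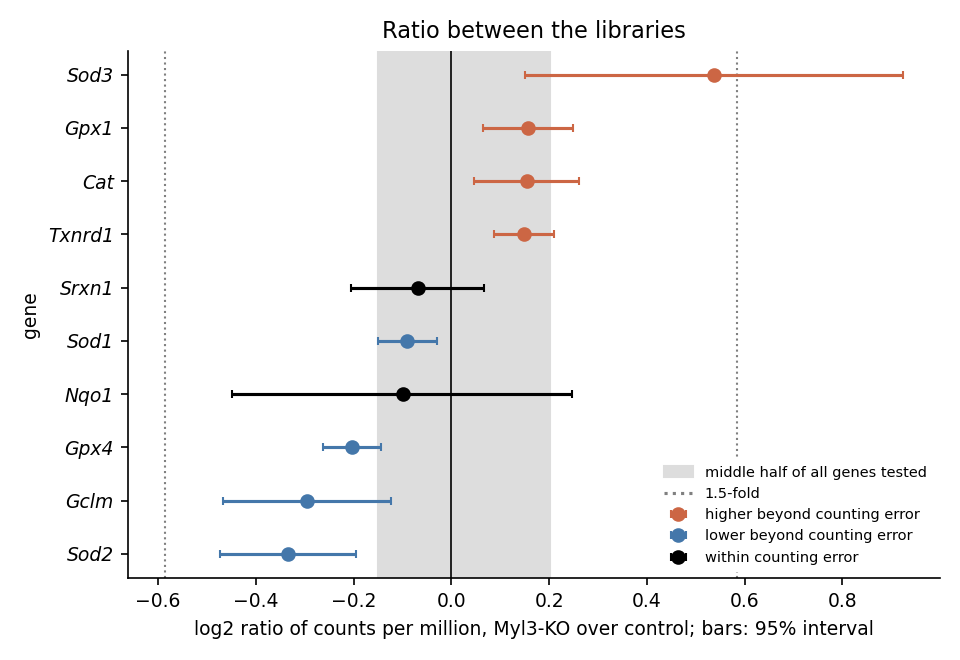
Log2 ratio of *Myl3*-KO over control for the 10 antioxidant genes, with 95% counting intervals as bars and 1 library per genotype. *Sod3* stands highest at 0.54 with the widest interval, *Sod2* lowest at -0.33, and the intervals of *Nqo1* and *Srxn1* cross 0.

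**Figure D2:**
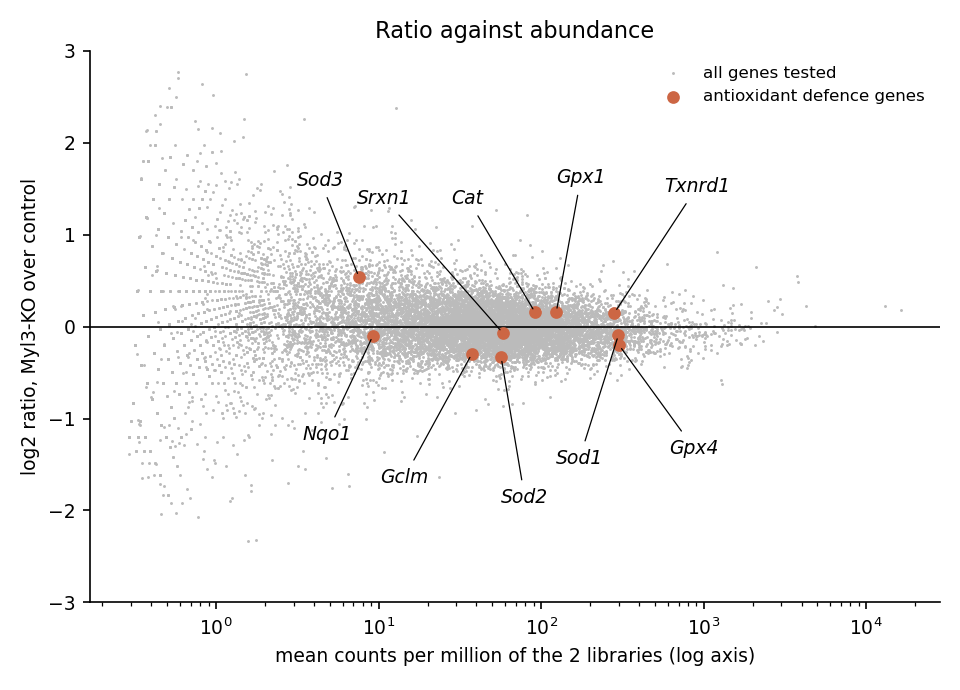
Log2 ratio of *Myl3*-KO over control (vertical) against mean CPM of the libraries (horizontal, log axis), with the 12431 genes tested as grey points and the 10 antioxidant genes as labelled points. The antioxidant genes lie inside the cloud of all genes at their abundance.

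The superoxide dismutases differ in where they work. *Sod1* encodes the copper-zinc enzyme of the cytosol, *Sod2* the manganese enzyme of the mitochondrial matrix, and *Sod3* the secreted copper-zinc enzyme that binds the extracellular matrix, cartilage matrix included. Levels of the antioxidant genes are compared with each other only per length, as FPKM (fragments scaled by transcript length and by library size). *Sod1* had the highest FPKM of the 10 genes in both libraries and *Sod3* the lowest, and *Sod1* made up 96.3% of the summed dismutase FPKM in control cells and 96.7% in the knockout.

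*Sod1* (chr16:90220754-90226329, plus strand, GRCm38) had 5431 counts, or 308 CPM, in control cells and 3905 counts, or 290 CPM, in the knockout. Its level was 477 FPKM in control cells and 449 in the knockout, lower in the knockout by 1.06-fold. The log2 ratio was -0.09 (95% counting interval -0.15 to -0.03, exact binomial test, Benjamini-Hochberg adjusted p = 0.0114). The difference was the smallest of those beyond counting error among the 10 genes. The gene overlaps *Scaf4* on the opposite strand without sharing an exonic base, *Scaf4* had 823 and 653 counts, and the strand used in counting is not given in the sources used here. A pseudogene of *Sod1*, *Gm8566*, shares 5.34% of the gene's 31-base words and has no row in the table.

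*Sod2* (chr17:13006846-13040063, plus strand) had 1115 counts in control cells and 677 in the knockout, or 63.3 and 50.2 CPM. Its level fell from 16.6 to 13.1 FPKM, a log2 ratio of -0.33 (-0.47 to -0.19, adjusted exact binomial p = 1.57e-05). The mitochondrial enzyme thus had the lowest ratio of the 10 genes. *Sod2* shares 20% of its 31-base words with a transcript of *Rps6ka2* on the same chromosome, a gene with 965 counts in control cells and 627 in the knockout, and how the counting divided such reads is not stated. *Sod2* also shares 22% of them with the uncounted *AC166110.4*, so its value carries that uncertainty.

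*Sod3* (chr5:52363791-52371418, plus strand) had 109 counts in control cells and 121 in the knockout, although the *Myl3*-KO library was the smaller. Scaled to the library, the level rose from 6.19 to 8.98 CPM, and per length from 1.66 to 2.40 FPKM. The log2 ratio of 0.54 had the widest interval of the 10 genes, 0.15 to 0.92 (adjusted exact binomial p = 0.0179). At this depth the interval ran from 1.11-fold to 1.90-fold.

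The dismutases were compared with each other by a Fisher exact test on the counts of both genes in both libraries, which does not depend on how libraries are scaled. It was run for 8 pairs of enzymes of related function, with Benjamini-Hochberg adjustment over the 8. Other pairs of genes were not compared, so how often such differences arise among them is not known. The test again covers counting error only, and it was not repeated with an assumed spread between libraries. The log2 ratio of *Sod2* was below that of *Sod1* by a difference of 0.24 (*Sod1* minus *Sod2*, 0.09 to 0.40, adjusted exact p = 0.00223), so that the cytosolic over mitochondrial FPKM ratio went from 28.8 in the control to 34.1 in *Myl3*-KO. The log2 ratio of *Sod1* minus that of *Sod3* was -0.63 (-1.02 to -0.24, adjusted exact p = 0.00223). Between *Sod2* and *Sod3* the difference was -0.87 (-1.28 to -0.46, adjusted exact p = 5.75e-05), the largest among the pairs. The secreted dismutase was therefore the least abundant in both libraries, and the gap to the mitochondrial enzyme narrowed from 9.98-fold to 5.48-fold in FPKM.

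Catalase and the glutathione peroxidases remove hydrogen peroxide. *Cat* encodes catalase, the heme enzyme of peroxisomes, *Gpx1* the cytosolic and mitochondrial glutathione peroxidase, and *Gpx4* the peroxidase that reduces lipid hydroperoxides in membranes and guards cells against ferroptosis. *Gpx1*, *Gpx4* and *Txnrd1* are selenoproteins, in which the codon TGA is read as selenocysteine when an element in the transcript beyond the coding part recruits the insertion machinery. The other 7 of the 10 genes have no annotated selenocysteine codon. The codons are printed below with 12 bases on either side, on the coding strand, because they show what sets these enzymes apart. They come from the GENCODE M21 transcript of each gene with the longest coding sequence, on GRCm38. Codon numbers may differ in other transcripts of these genes. Capitals mark the selenocysteine codon.
*Gpx1*, codon 47 of 201, chr9:108339451-108339453: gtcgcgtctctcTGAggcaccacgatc
*Gpx4*, codon 129 of 253, chr10:80054737-80054739: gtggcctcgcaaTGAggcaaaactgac
*Txnrd1*, codon 612 of 613, chr10:82896037-82896039: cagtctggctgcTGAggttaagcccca

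In *Gpx1* and *Gpx4* the codon is well inside the coding sequence, whereas in *Txnrd1* only 1 codon follows it before the stop. The selenoproteins among the 10 genes did not share a direction, since *Gpx1* and *Txnrd1* were higher in *Myl3*-KO and *Gpx4* was lower.

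*Cat* (chr2:103453849-103485160, minus strand) had 1529 counts in control cells and 1302 in the knockout. Scaled to the library it rose from 86.8 to 96.6 CPM, and its level per length was 33.2 and 37.0 FPKM. The log2 ratio was 0.15 (0.05 to 0.26, adjusted exact binomial p = 0.0168), or 1.11-fold higher in *Myl3*-KO.

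*Gpx1* (chr9:108338903-108340343, plus strand) had 2063 and 1760 counts, or 117 CPM in control cells and 131 CPM in the knockout. The log2 ratio by counts was 0.16 (0.06 to 0.25, adjusted exact binomial p = 0.00374). By deposited FPKM the gene had 128 in control cells and 133 in the knockout, a log2 ratio of 0.05. The units part where the transcript length implied by count and FPKM was 913 bases in control cells and 981 in the knockout. With the interval moved to the FPKM ratio, an alternative chosen after the data were seen, *Gpx1* was no longer beyond counting error, so its call depends on the unit. *Gpx1* lies 2.4 Mb from *Myl3* on chromosome 9.

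*Gpx4* (chr10:80047166-80056439, plus strand) had 5688 counts in control cells and 3782 in the knockout, or 323 and 281 CPM. Its level fell from 337 to 293 FPKM, a log2 ratio of -0.20 (-0.26 to -0.14, adjusted exact binomial p = 3.33e-10). It had the lowest p of the 10 genes at a 1.15-fold difference, with the highest count. The pseudogene *Gpx4-ps2* shares 38.7% of its 31-base words and *AC122253.3* shares 7.47%, neither has a row in the table, and the fate of reads that fit a pseudogene is not stated.

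Within this group the peroxidases parted. The log2 ratio of *Gpx1* was above that of *Gpx4* by 0.36 (0.25 to 0.47, adjusted exact Fisher p = 4.95e-10), and the FPKM of *Gpx4* over that of *Gpx1* went from 2.63 in the control to 2.20 in *Myl3*-KO. The log2 ratios of *Cat* and *Gpx1* differed by -0.0027, with an interval from -0.15 to 0.14 (adjusted exact p = 0.98). Both values rest on counts, and the unit matters for pairs with *Gpx1*: by FPKM the difference was 0.26 between *Gpx1* and *Gpx4* and 0.10 between *Cat* and *Gpx1*, neither of which was tested.

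The remaining genes are known targets of NRF2. *Gclm* encodes the modifier subunit of glutamate-cysteine ligase, which catalyses the rate-limiting step of glutathione synthesis. *Txnrd1* encodes the cytosolic thioredoxin reductase, *Srxn1* sulfiredoxin, which restores overoxidized peroxiredoxins, and *Nqo1* a quinone reductase. NRF2 binds antioxidant response elements in DNA, and the core letters TGACNNNGC were searched on both strands in the RefSeq promoter windows of GRCm38.p6, from 250 bases before to 50 bases after each start site. The AP-1 element TGACTCA was searched as well, and that element followed directly by GC would count for both.

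Windows were found for 9 of the 10 genes, all but *Sod3*, and 4 of them (*Sod1*, *Gclm*, *Txnrd1* and *Srxn1*) held the core in at least 1 window. Of all 27025 genes with a window, 14% held it, as did 12.4% of the 32851 windows. The sites are printed on the strand of the gene with 10 bases on either side, as the letters on which this comparison rests, and capitals mark the match, here its reverse complement GCNNNGTCA.
*Sod1*, position -56 from the start site, chr16:90220696-90220724, plus strand: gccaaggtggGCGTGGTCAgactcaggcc
*Gclm*, position -134, chr3:122245413-122245441, plus strand: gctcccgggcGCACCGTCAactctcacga
*Txnrd1*, position -92 in 1 of its 3 windows, chr10:82859104-82859132, plus strand: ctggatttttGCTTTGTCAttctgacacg
*Srxn1*, position 28 after the start site, chr2:152105542-152105570, plus strand: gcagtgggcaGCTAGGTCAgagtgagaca

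Of the genes with these letters, *Sod1* and *Gclm* were lower in *Myl3*-KO, *Txnrd1* was higher and *Srxn1* was within counting error, so that a shared match did not go with a shared direction. *Srxn1* was the 1 gene of the 10 with the AP-1 element, which 5.95% of genes with a window held. It occurred at both sites below, again printed with 10 bases on either side and with the match, TGAGTCA on this strand, in capitals.
*Srxn1*, position -102, chr2:152105412-152105438, plus strand: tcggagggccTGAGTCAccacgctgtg
*Srxn1*, position -45, chr2:152105469-152105495, plus strand: aaattcacccTGAGTCAgcggccgggc

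A match in a window is a description of letters and not evidence of binding. Elements of *Nqo1*, *Gclm* or other genes may lie outside these windows or have letters that were not searched. At position -45 of *Srxn1* the letters gc follow the match, but G stands after TGA where the searched core has C. That site therefore counted for the AP-1 element only, and which of the *Srxn1* sites NRF2 binds was not tested.

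*Gclm* (chr3:122245557-122270732, plus strand) had 728 counts in control cells and 454 in the knockout, or 41.3 and 33.7 CPM. Its level fell from 20.8 to 16.7 FPKM, and the log2 ratio of -0.30 (-0.47 to -0.12, adjusted exact binomial p = 0.00282) was a 1.23-fold difference. The gene overlaps the annotated *Gm17494* by 296 exonic bases on the opposite strand and *Gm6061* by 244 on the same strand, neither of which has a row in the table. Its partner *Gclc*, the catalytic subunit, had 1924 and 1398 counts and a log2 ratio of -0.07 (adjusted exact binomial p = 0.263). The ratios of the subunits differed by -0.22 (*Gclm* minus *Gclc*, -0.42 to -0.02, adjusted exact Fisher p = 0.0316), and FPKM of *Gclc* over *Gclm* went from 1.54 to 1.81.

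*Txnrd1* (chr10:82833951-82897712, plus strand) had 4715 counts in control cells and 4001 in the knockout. It rose from 268 to 297 CPM and from 89.1 to 101 FPKM, with a log2 ratio of 0.15 (0.09 to 0.21, adjusted exact binomial p = 1.39e-05). Its substrate, the cytosolic thioredoxin *Txn1*, fell from 9022 to 5902 counts, a log2 ratio of -0.23. Reductase and substrate thus stood on opposite sides of the library average, 0.38 apart on the log2 scale (0.30 to 0.45, adjusted exact Fisher p = 1.14e-20). The FPKM of *Txn1* over *Txnrd1* went from 5.47 in the control to 4.14 in *Myl3*-KO. *Eid3*, which lies within *Txnrd1* on the same strand without sharing exonic bases, had 10 and 7 counts.

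*Srxn1* (chr2:152105516-152111376, plus strand) had 1047 counts in control cells and 764 in the knockout, or 59.4 and 56.7 CPM and 21.1 and 20.2 FPKM. Its log2 ratio was -0.07 (-0.21 to 0.07, adjusted exact binomial p = 0.483). *Prdx1*, a peroxiredoxin that sulfiredoxin repairs, was more abundant per length by 34.2-fold in the control and 29.7-fold in *Myl3*-KO. It had 15743 and 10146 counts and, scaled to the library, fell from 894 to 753 CPM, a log2 ratio of -0.25. The ratios of *Srxn1* and *Prdx1* differed by 0.18 (0.04 to 0.32, adjusted exact Fisher p = 0.016).

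*Nqo1* (chr8:107388225-107403206, minus strand) had 168 counts in control cells and 120 in the knockout, or 9.54 and 8.90 CPM and 6.14 and 5.73 FPKM. Its log2 ratio was -0.10 with an interval from -0.45 to 0.25 (adjusted exact binomial p = 0.738). Ratios within that interval, on either side of 0, could not be told apart at this depth.

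**Figure D3:**
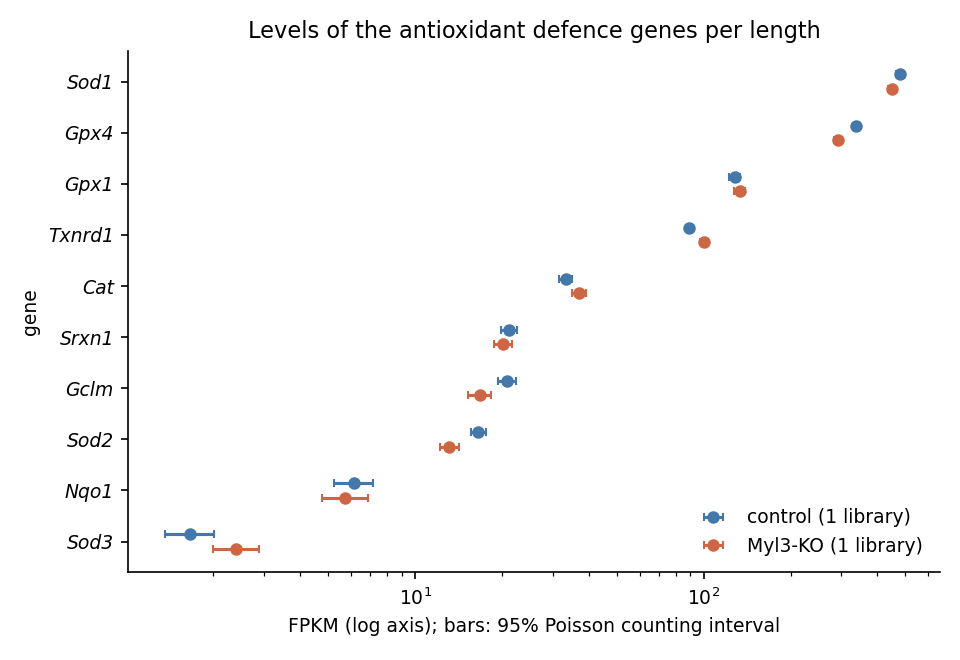
FPKM (log axis) of the 10 antioxidant genes in the control and the *Myl3*-KO library, with 95% Poisson counting intervals as bars. The order from *Sod1* (477 and 449) down to *Sod3* (1.66 and 2.40) is the same in both libraries.

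Per length, the order of levels was the same in both libraries, namely *Sod1*, *Gpx4*, *Gpx1*, *Txnrd1*, *Cat*, *Srxn1*, *Gclm*, *Sod2*, *Nqo1* and *Sod3*. The highest exceeded the lowest by 288-fold in the control and 187-fold in *Myl3*-KO. Neighbours in the order had counting intervals that did not overlap, except *Srxn1* and *Gclm* in the control, at 21.1 and 20.8 FPKM. In *Myl3*-KO their intervals did not overlap, at 20.2 and 16.7 FPKM. With 2 libraries no measure of likeness between patterns exists beyond the ratio, and no other gene is named as following one of the 10.

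**Figure D4:**
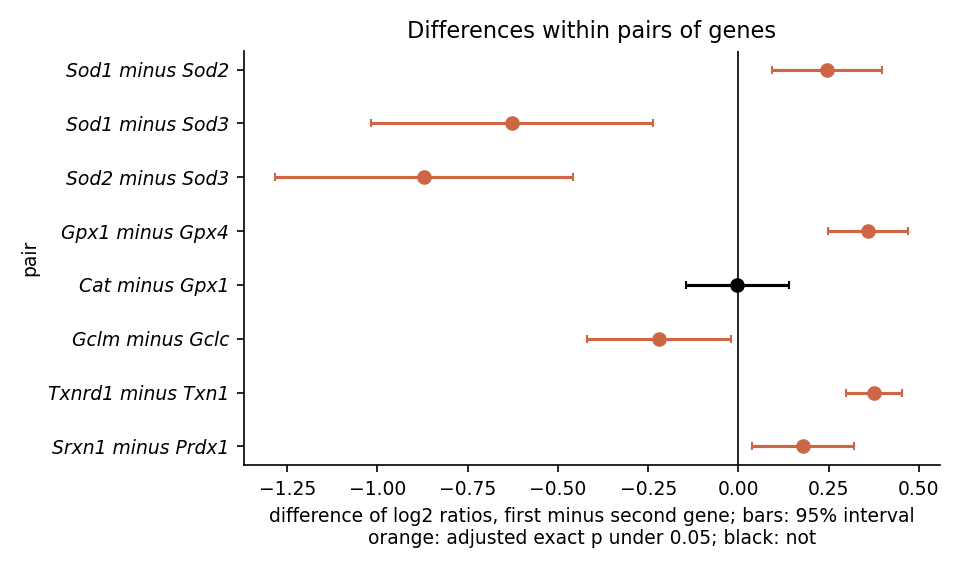
Difference of log2 ratios (*Myl3*-KO over control) within each of the 8 pairs of enzymes, first gene minus second, with 95% intervals from the Fisher exact test as bars. The pair of *Cat* and *Gpx1* lies at 0, and the pair of *Sod2* and *Sod3* lies farthest from it, at -0.87.

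Around the 10 genes, lists of related genes were counted by the same test. The lists overlap in some genes, and their shares are to be read against the 18.6% higher and 16.8% lower among all genes tested. Of the 22 peroxiredoxin, thioredoxin and glutaredoxin genes, all tested, 6 were higher in *Myl3*-KO, 8 were lower and 8 were neither, with a median log2 ratio of -0.08. The lowest ratios beyond counting error belonged to *Glrx5*, a mitochondrial glutaredoxin of iron-sulfur cluster assembly (633 and 383 counts, log2 ratio -0.34), the mitochondrial peroxiredoxin *Prdx3* (1727 and 1054, -0.33) and *Glrx2* (348 and 214, -0.32). The highest belonged to the mitochondrial thioredoxin reductase *Txnrd2* (180 and 185 counts, 0.43), the methionine sulfoxide reductase *Msrb2* (348 and 340, 0.35) and *Sesn3*, a sestrin (1287 and 1166, 0.24). Mitochondrial enzymes thus stood at both ends of the list.

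For glutathione synthesis and use, 17 of 23 genes were tested, and 4 were higher, 4 lower and 9 neither, with a median log2 ratio of -0.07. *Chac1*, which degrades glutathione, fell from 169 to 83 counts (-0.64), *Gpx7*, a peroxidase of the endoplasmic reticulum, from 405 to 230 (-0.43) and the transferase *Gstm5* from 1506 to 947 (-0.28). *Gstm1* rose from 54.5 to 81.2 CPM (959 and 1094 counts, 0.58), ahead of *Mgst3* (223 and 226 counts, 0.41) and *Gsta4* (544 and 492, 0.24). The transferases were therefore found on both sides, and the *Gstm* genes are close paralogs among which reads may be split.

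The reductases depend on NADPH, and of 17 genes of NADPH supply, all tested, 4 were higher, 9 lower and 4 neither, with a median of -0.11. The lowest were enzymes of mitochondria, the NAD kinase *Nadk2* (1316 and 555 counts, -0.86), the folate enzyme *Mthfd2* (1939 and 980, -0.60) and the malic enzyme *Me2* (1099 and 579, -0.54). *Nadk2* at 1.82-fold lower, *Mthfd2* at 1.51-fold lower and *Me3* at 2.33-fold higher were larger differences than that of any of the 10 antioxidant genes. *Me2*, at 1.453-fold lower, was about level with *Sod3* at 1.451-fold higher. Higher were *Me3*, a mitochondrial malic enzyme at low level (23 and 41 counts, 1.22), the cytosolic isocitrate dehydrogenase *Idh1* (2705 and 2532, 0.29) and the mitochondrial transhydrogenase *Nnt* (2058 and 1841, 0.23). Whether *Nnt* or the other transcripts of this list yield active enzyme in this mouse strain was not tested.

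Of 10 regulators of NRF2, all tested, 4 were higher and 2 lower, with a median of 0.11. *Nfe2l2*, the gene of NRF2 itself, had 1254 and 932 counts (log2 ratio -0.04, adjusted exact binomial p = 0.663), and *Keap1*, which hands NRF2 to degradation, had 914 and 734 (0.07, p = 0.498). *Bach1*, a repressor at NRF2 sites, rose from 46.6 to 56.6 CPM (0.28), *Mafg*, a small Maf partner, from 111.8 to 129.7 CPM (0.21) and *Sqstm1*, an adaptor that binds KEAP1, from 380.0 to 429.3 CPM (0.18). The ubiquitin ligase subunits *Rbx1* and *Cul3* fell, at -0.15 and -0.14.

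Among 25 other known NRF2 targets, 23 were tested, with 7 higher, 6 lower and 10 neither, and a median of -0.07. *Hmox1*, the inducible heme oxygenase, fell from 586 to 366 counts, a log2 ratio of -0.29 (-0.49 to -0.10, adjusted exact binomial p = 0.00923), and *Esd*, an esterase, from 2300 to 1495 (-0.24). In contrast *Aldh3a1*, an aldehyde dehydrogenase, rose from 253 to 411 counts (1.09) and *Osgin1* from 109 to 126 (0.60). Counting *Prdx1* and *Gstm1* as well, the named targets went both ways.

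Of the other selenoprotein genes, 20 of 21 were found, 14 were tested, and 3 were higher and 3 lower, with a median of -0.06. *Selenop*, the secreted selenium carrier, rose from 14.6 to 20.7 CPM (0.50) and *Selenon*, of the endoplasmic reticulum, from 79.7 to 100.0 CPM (0.33), next to *Txnrd2* above. *Sephs2*, which makes selenophosphate for selenocysteine, fell from 460 to 283 counts (-0.31), *Selenot* from 3587 to 2315 (-0.25) and *Selenoi* from 2442 to 1698 (-0.14). *Sephs2* was also the 1 gene beyond counting error among 9 genes of the selenocysteine machinery, whose median was -0.07.

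Sources of superoxide and peroxide had the highest median among the lists of related genes, 0.29, over the 8 tested of 15 found, with 4 higher and 1 lower. *Nox4*, an NADPH oxidase that releases hydrogen peroxide, rose from 406 to 480 counts, 1.54-fold higher by CPM (0.63). *Aox1*, an aldehyde oxidase, rose from 144 to 215 counts (0.96), and *Duox1* had 3 and 12 counts, a log2 ratio of 2.39 with an interval from 0.50 to 4.85. *Duox1* passed the filter on low counts through the knockout library, and without it 3 of 7 genes were higher and 1 lower, with a median of 0.23. *Rac1*, a small GTPase that activates NADPH oxidases among many other roles, fell by 0.09 on the log2 scale.

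Copper and iron handling feeds the metal enzymes and limits free iron. Of 12 genes 10 were tested, and 1 was higher and 2 were lower, with a median of -0.04. *Atox1*, the copper chaperone that serves secreted copper enzymes such as *Sod3*, fell from 760 to 497 counts (-0.23) and the copper pump *Atp7a* from 775 to 510 (-0.22). *Fth1*, the ferritin heavy chain, rose from 762 to 810 CPM (0.09).

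**Figure D5:**
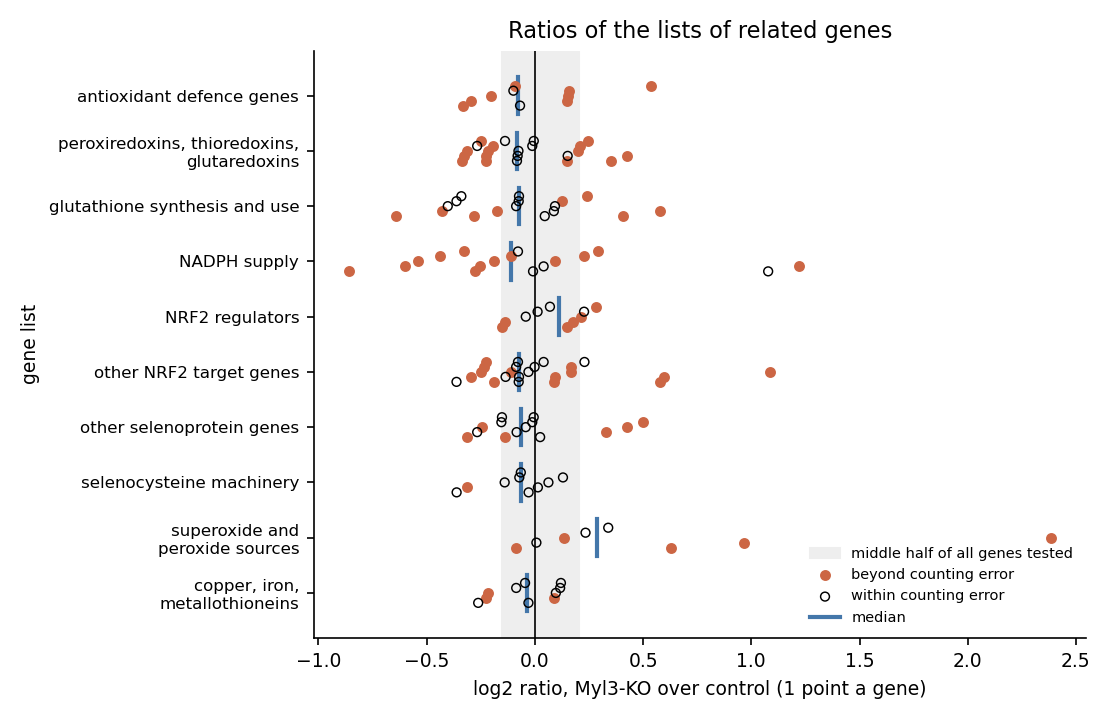
Log2 ratio of *Myl3*-KO over control for each tested gene (points) of the 10 antioxidant genes and of the lists of related genes, with the median of each list as a line. Medians lie between -0.11 (NADPH supply) and 0.29 (superoxide and peroxide sources), against 0.02 for all genes tested.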

How the data were processed

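Libraries of primary chondrocytes, 1 control and 1 *Myl3*-KO, were compared. The authors deposited expected counts (estimated reads per gene, not normalized), and 1438 control values and 1388 knockout values were not whole. Those of the 10 antioxidant genes were whole. The authors also deposited FPKM values, scaled by gene length and library, beside pathway and gene ontology annotation, which was used only for pathway names. The submitters' processing notes name GRCm38 and mm10. The aligner, the counting tool and the strand of counting are not given in the sources used here. The labels name a SMARTER library kit, whereas the study's methods describe oligo beads and random primers, which bears on coverage along transcripts. Column NC was read as control, since its partner is named KO.

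Expected counts were rounded for the tests. The filter of 10 counts, summed over the libraries, kept 12431 genes and left out 9725. Each was tested by an exact binomial test, two-sided, with the share of the library totals as null, with Benjamini-Hochberg adjustment over all of them at 0.05 and 95% Clopper-Pearson intervals. Counts under 3 were raised to 3 for ratios (0.170 CPM in the control, 0.223 in *Myl3*-KO). Reads are not independent molecules, so tests and intervals cover counting error only. No replicated test was possible at 1 library per genotype. Pairs of genes were compared by Fisher's exact test, and levels were given Poisson intervals. The procedure was tested on simulated counts that had counting error only, with planted changes larger than those of the 10 antioxidant genes. That simulation cannot show how the procedure behaves under a spread between libraries or at differences as small as theirs. Alternatives used edgeR 4.0.16 and DESeq2 1.42.0 under R 4.3.3, and all else scipy 1.17.1, numpy 2.4.6, matplotlib 3.10.9 and pandas 2.3.3 under Python 3.11.15.

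Coordinates and transcripts came from GENCODE M21 on GRCm38, in which 21881 of 21910 Ensembl identifiers were found, and promoter windows from RefSeq on GRCm38.p6. A gene sharing at least 5% of a member's 31-base words was reported. Named genes were the 10 members, up to 3 with the highest and 3 with the lowest ratio beyond counting error in each related list, the genes of the 8 pairs, *Nfe2l2*, *Keap1*, *Hmox1* and *Gclc*, and genes that share sequence or overlap with a member. Markers named in the report were chosen after their values were seen. The members and lists were chosen with earlier results of these data known.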

Additional observations from a re-analysis of the deposited data

How the results depend on the processing

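The counts of 4 members higher and 4 lower in *Myl3*-KO stayed at 4 and 4 under TMM scaling, DESeq2 size factors, totals without the 10 most abundant genes of each library, no filter, at least 10 counts in each library and 1 added count. The shares among all genes tested moved with the scaling. They were 18.6% higher and 16.8% lower in the main comparison, but 16.6% and 18.9% under TMM and 16.7% and 18.7% under DESeq2. Leaving out the most abundant genes made them 20% and 15.4%. Without a filter they were 15% and 13.7%, with the stricter filter 19.4% and 17.9%, and with the added count 18.5% and 16.7%. Which direction was commoner among all genes therefore depended on the scaling. The FPKM ratio with the binomial call takes its p from the counts, so it checks directions only. With an assumed coefficient of variation of 0.1, 0.2 or 0.4 in edgeR's exact test, 0 members were higher and 0 were lower at each value, 0 had an unadjusted p under 0.05, and the lowest member p was 0.0606, 0.247 and 0.54. Among all genes tested, 828, 175 and 25 had an unadjusted p under 0.05, and 41, 3 and 1 higher and 20, 1 and 0 lower genes passed adjustment. The FPKM ratio with its own counting interval, chosen after seeing the data, changes the call rule as well as the unit and calls 22.2% of all genes higher and 21.3% lower, and it left 3 members higher and 4 lower, without *Gpx1*. A fold limit of 5 to 4, in place of 1.5, gave 2 members, *Sod2* and *Sod3*, and limits of 2 and 4 gave 0. The share of all genes tested that passed these other limits was not computed. Whether the members passed them more or less often than other genes is therefore not known. The median log2 ratio of the members ranged from -0.10 to -0.07. Of 110 member values compared over 11 settings, 85 kept their direction and side of the threshold, 25 kept the direction only and 0 reversed. The filter and coefficient of variation settings keep the ratio of the main comparison, so a direction could not reverse under them. The pair differences by FPKM and the list without *Duox1* were also chosen after seeing the data. No paired analysis was possible because each genotype has 1 library, so the groups share fewer than 2 replicate numbers, and leaving out a replicate was not possible for the same reason.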

Other observations

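Pathway names in the deposited table, looked up after the data were seen, place the antioxidant genes beside further genes. Of 38 tested genes of glutathione metabolism, which hold *Gpx1*, *Gpx4* and *Gclm*, 8 were higher in *Myl3*-KO and 10 lower beyond counting error (exact binomial test), with a median log2 ratio of -0.09. Of 68 genes of the peroxisome pathway, with *Sod1*, *Sod2* and *Cat*, 13 were higher and 12 lower, with a median of 0.02. Of 34 genes of ferroptosis, a form of cell death by lipid peroxidation that GPX4 restrains, 6 were higher and 13 lower, with a median of -0.07, and *Gpx4* and *Gclm* were among the lower. These are shares of 21.1% higher and 26.3% lower for glutathione metabolism, 19.1% and 17.6% for the peroxisome and 17.6% and 38.2% for ferroptosis, against 18.6% and 16.8% of all genes tested. No test of these pathways against other genes was made.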
